A study of Mus musculus with 36 samples.

Results

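The bladder libraries taken at the 12 h time label were compared between adrenalectomized mice given corticosterone (CORT, the main glucocorticoid of mice) and adrenalectomized mice given vehicle. The comparison was defined by the labels alone: 3 CORT and 3 vehicle libraries, 6 of the 36 in the series, with every feature of the gene tables included. All animals were C57BL/6, a common inbred mouse strain, and both groups had undergone bilateral adrenalectomy, the removal of both adrenal glands, which make corticosterone. The CORT group was given the hormone in the inactive time of its day, per the labels. Its dose and the meaning of time zero are not given in the labels used here, and neither are the age and sex of the mice. The vehicle group therefore shared the operation and lacked only the hormone, and no group with intact adrenal glands was analysed here. Per its title, the series asks how glucocorticoids act on the peripheral clock of the bladder and on when mice urinate.

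The mammalian clock is a transcriptional loop that runs in most cells. BMAL1, the product of Arntl, pairs with CLOCK or NPAS2 and activates genes that carry E-boxes, among them the Per, Cry, Nr1d, Dbp, Tef and Ciart genes. The PER and CRY proteins then block this pair, while the REV-ERB proteins, encoded by Nr1d1 and Nr1d2, repress Arntl and Nfil3 and so tie a second loop to the first. Glucocorticoids are a timing signal for clocks outside the brain, and the glucocorticoid receptor directly induces genes such as Per1, Fkbp5 and Tsc22d3.

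Values are the authors' read counts per gene after quantile normalization, which gives every library the same set of values. They were put on 1 scale for both groups and are called normalized values. Over all times, a CORT library held 11016413 reads on average and a vehicle library 10682675, and averages by group and replicate number ran from 9591304 to 12311337. At 12 h the mean Pearson r over genes between libraries of the same group was 0.982 (6 pairs, 0.977 to 0.985). Libraries of different groups also correlated at a mean of 0.982 (9 pairs, 0.978 to 0.987). The labels name whole bladder as the source, whereas the extraction text describes blood. All 16 urothelium markers and all 10 smooth muscle markers were detected well enough to be tested. Their summed values ran from 85970 to 120600 in CORT and from 76340 to 158700 in vehicle for urothelium, and from 223400 to 370500 and from 154700 to 449000 for smooth muscle. In tables of genes that the authors selected, 8 replicate 2 columns at 4, 8, 16 and 20 h hold another library's values than in the full tables. None of the 6 columns at 12 h was affected (0 of 6), but those libraries enter the fit's estimate of spread and the values at the other times. The labels do not state whether replicates came from separate mice. The p-values therefore reflect only the variation among these libraries, some of which may be technical. In whole tissue, fewer cells of a type and less RNA per cell cannot be told apart.

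At 12 h, 7 of the 8 features that differed between CORT and vehicle bladders were genes of the circadian clock, and their repressors and outputs were lower where their activator was higher. Among 17867 features tested, 8 passed an adjusted p of 0.05 (0.0448%; limma, a linear model with moderated variances, Benjamini-Hochberg adjustment). Of these, 1 was higher in CORT, Arntl (0.0056%), and 7 were lower (0.0392%), namely Nr1d1, Nr1d2, Ciart, Bhlhe41, Dbp, Tef and Lingo1. All but Lingo1 belong to a list of 19 clock genes. The median log2 difference over all features was 0.01, and 54% of features were positive.

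**Figure D1:**
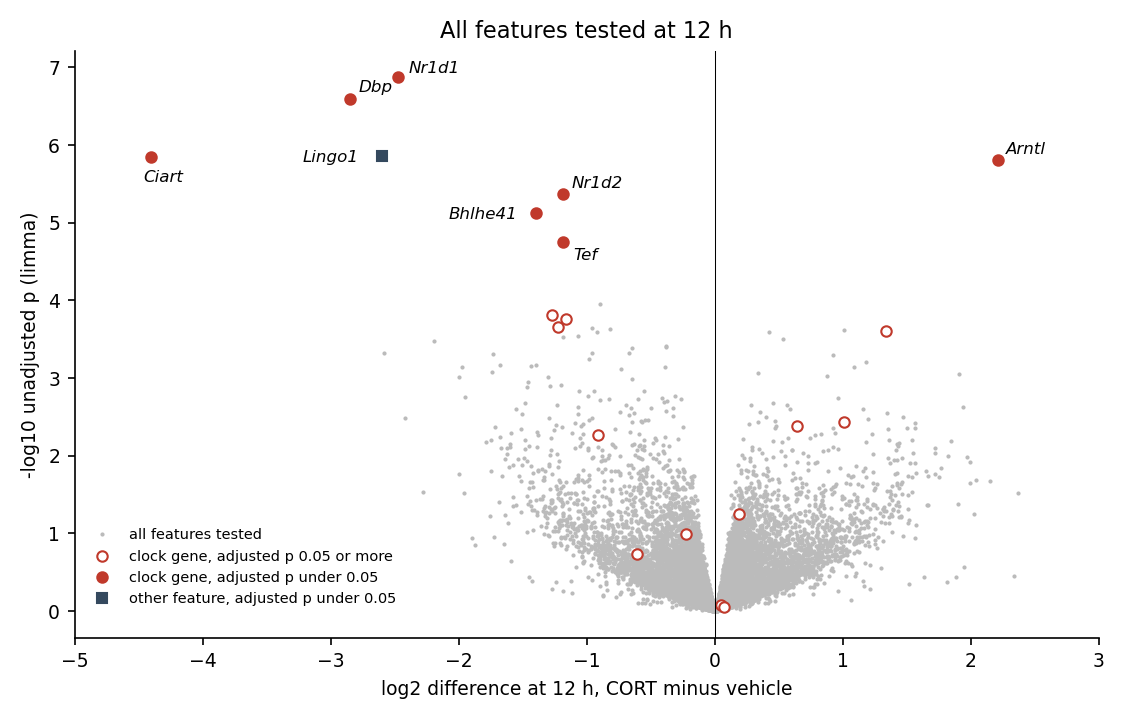
Log2 difference at 12 h, CORT minus vehicle (x axis), against the −log10 of the unadjusted limma p (y axis), for 17867 features. Filled circles are clock genes with an adjusted p under 0.05, the square is Lingo1 and open circles are the other clock genes. Arntl stands alone on the right and 7 features stand apart on the left.

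The calls rest on a spread estimated from all 36 libraries. With only the 6 libraries at 12 h in the fit, limma called 0 features (smallest adjusted p = 0.164), although 728 had an unadjusted p under 0.05. Without the 8 libraries whose names differ between tables, 3 features were called (Nr1d1, Dbp and Arntl), and with the other naming 0 were called (smallest adjusted p = 0.0837; 558 at an unadjusted p under 0.05). Leaving out single 12 h libraries left 1 call without vehicle replicate 1 (Nr1d1), 3 without CORT replicate 2 (Nr1d1, Dbp and Lingo1) and 4 without vehicle replicate 3 (Nr1d1, Dbp, Arntl and Lingo1).

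Stretches before the start of transcription are shown for genes called at 12 h that carry the E-box CACGTG, which BMAL1 pairs bind. The sequences are RefSeq promoters of mouse build GRCm38.p6, searched over 250 bases before each start. Starts are those of RefSeq, and 20 bases after the start were found in an annotated transcript of the gene for 52 of 69 entries checked. Of the 8 called genes, 3 had such a match (Ciart, Bhlhe41 and Tef), in 4 of 11 promoter entries, against 6.02% of all 32851 promoters and 7.5% of the 16458 promoters of tested features. CACGTG is its own reverse complement, so both strands give the same match. The whole stretch of Ciart, which holds 3 E-boxes, is given on its own strand, at chr3:95882229-95882478 (minus strand), with the E-boxes in capitals.
Ciart: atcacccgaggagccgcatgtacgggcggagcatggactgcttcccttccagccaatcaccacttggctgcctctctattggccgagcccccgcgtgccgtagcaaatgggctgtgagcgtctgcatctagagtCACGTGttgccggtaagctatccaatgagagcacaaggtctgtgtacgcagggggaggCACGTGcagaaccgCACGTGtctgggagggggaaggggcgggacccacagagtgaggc
The E-boxes of Ciart begin 116, 58 and 44 bases before the RefSeq start, that of Bhlhe41 153 bases before its RefSeq start, and those of Tef 127 and 138 bases before its pair of RefSeq starts. The GENCODE genes of Ciart, Bhlhe41 and Tef begin farther upstream. The end of the Ciart stretch lies inside the GENCODE gene, which begins at 95882251, and the 3 E-boxes lie before that start. By that annotation the Bhlhe41 window overlaps the start of the gene, with its E-box just before it, and both Tef windows lie inside the gene, so the Tef matches are upstream by the RefSeq starts only. For comparison, the Bhlhe41 window covers chr6:145865556-145865585 (minus strand) and the Tef windows chr15:81802534-81802563 and chr15:81811264-81811293 (plus strand).
Bhlhe41: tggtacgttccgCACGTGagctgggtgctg
Tef, first start: gtgctgtggctcCACGTGctgcagctggca
Tef, second start: cacctggcccagCACGTGtctacatcgttt
Each window shows the E-box with 12 bases on either side. A match is a description of letters, not of binding. No promoter of a called gene held a D-box (TTATGTAA or TTACGTAA, the site of DBP, TEF, HLF and NFIL3; 0 of 11, against 0.931% of all promoters). None held a REV-ERB element (TAGGTCA or TGGGTCA; 5.38% of all) or a glucocorticoid response element in its palindromic form (0.387%), all searched on both strands with overlaps allowed.

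Of 10 clock repressors, 4 were called lower in CORT and none higher, and in 9 all 3 CORT libraries lay below all 3 vehicle libraries. Over all features, the CORT libraries all lay below vehicle for 3.34% and all above for 3.15%. The median log2 difference of the 10 repressors was -1.20.

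Nr1d1 encodes REV-ERB alpha, the repressor of Arntl. Its normalized values were 178.6, 217.8 and 443.9 in CORT replicates 1, 2 and 3, and 1528, 1198 and 1633 in vehicle replicates 1, 2 and 3. The highest CORT library stayed well under the lowest vehicle library. The mean was 280.1 ± 143 in CORT and 1453 ± 227 in vehicle (SD, n = 3 each), a log2 difference of -2.47 ± 0.34 (SE; limma, adjusted p = 0.00225). Vehicle was thus 5.55-fold higher by the means on the log2 scale. On mm10 the gene lies on chromosome 11 from 98767932 to 98775333, and its 3′ end overlaps Thra on the opposite strand. Thra itself differed by 0.06 ± 0.14 on the log2 scale (adjusted p = 1).

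Nr1d2 encodes REV-ERB beta, the paralog. It read 1021, 787.4 and 1262 in CORT against 2581, 1950 and 2374 in vehicle, again with no overlap. The log2 difference was -1.19 ± 0.20 (SE; limma, adjusted p = 0.0127), a smaller difference than that of Nr1d1 by point estimate, and the contrast between the paralogs was not tested. It lies on chromosome 14 from 18204054 to 18239127.

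Ciart, which encodes CHRONO, a repressor that acts on the BMAL1 complex, showed the most extreme log2 difference of the 8 called features. Its values were 1.5, 0.667 and 3.44 in CORT and 91.8, 25.2 and 70.8 in vehicle. The transcript was close to the floor in every CORT library and clearly present in every vehicle library. The log2 difference of value plus 1 was -4.40 ± 0.71 (SE; limma, adjusted p = 0.0056), and it understates the change of a gene with so few reads. Its size depends on the value added before the log, and was -2.48 with 10 added in place of 1 (adjusted p = 0.00699). The promoter printed above is that of this gene (chromosome 3, 95878503 to 95882251), and an antisense gene, C920021L13Rik, overlaps it.

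Bhlhe41 encodes DEC2, which competes for E-boxes. Values of 309.9, 210.1 and 337.7 in CORT stood against 944.6, 583.7 and 730.8 in vehicle, with no overlap. The log2 difference was -1.40 ± 0.25 (SE; limma, adjusted p = 0.0189), at chromosome 6, 145858243 to 145865558. Its paralog Bhlhe40 (DEC1) read 323.6, 298.1 and 250.5 in CORT and 708.9, 414.3 and 547.8 in vehicle. These did not overlap either, but the difference of -0.91 ± 0.30 did not pass (limma, adjusted p = 0.725).

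The 3 Period genes encode the partners of the CRY proteins. Per1 read 276.4, 307.9 and 413.6 in CORT and 943.6, 642.0 and 741.6 in vehicle. Per2 read 335, 311.9 and 362.3 against 961.3, 642.9 and 687.8. Per3 read 229.6, 105.3 and 212.8 against 501.6, 358.2 and 408.0. In each, every CORT library was below every vehicle library. Their log2 differences were -1.22 ± 0.28, -1.16 ± 0.26 and -1.27 ± 0.29 (SE), and all 3 missed the threshold with an adjusted p of 0.256 (limma). With weights that count noisy libraries less, Per1 and Per3 were called as well, both at an adjusted p of 0.0493 (limma).

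Per3 shared no E-box match with the genes above, but its promoter is shown because it holds D-boxes, the element that DBP and TEF bind and NFIL3 competes for. The 250 bases before its start lie at chr4:151044666-151044915 (minus strand), and the capitals mark the D-box TTATGTAA, which begins 205 and 158 bases before the start.
Per3: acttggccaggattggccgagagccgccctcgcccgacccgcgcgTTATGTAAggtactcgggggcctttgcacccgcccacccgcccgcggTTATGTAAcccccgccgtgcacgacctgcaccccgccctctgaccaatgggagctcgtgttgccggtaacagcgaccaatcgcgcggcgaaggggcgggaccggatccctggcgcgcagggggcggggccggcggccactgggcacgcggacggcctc
Both matches have the same letters. Per3 overlaps Camta1 on the same strand, and Camta1 differed by -0.06 ± 0.22 on the log2 scale (limma, adjusted p = 1). A D-box of either spelling occurred in 0.705% of the promoters of tested features. Dbp and Tef, which encode activators of this element, were lower in CORT, and Nfil3, which encodes its repressor, had higher values there, as given below. A link between these differences and that of Per3 was not tested.

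The Cryptochrome genes encode the main direct repressors of the CLOCK and BMAL1 pair, and neither was called. Cry1 read 416.3, 432.5 and 247.9 in CORT and 299.6, 190.6 and 205.5 in vehicle, where 1 vehicle library exceeded the lowest CORT library. Its log2 difference was 0.64 ± 0.20 (SE; limma, adjusted p = 0.670), the only positive one among the 10 repressors. Cry2 values of 442.9, 486.0 and 406.0 in CORT lay just below 553.2, 505.6 and 494.6 in vehicle, a difference of -0.22 ± 0.13 (limma, adjusted p = 1).

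Among 5 clock activators, 1 was called higher and none lower, with a median log2 difference of 0.19, and in 3 all CORT libraries lay above all vehicle libraries. Arntl, the gene of BMAL1, read 265.4, 353.3 and 278.0 in CORT and 39.6, 74.4 and 85.8 in vehicle. It was the single called feature that was higher in CORT, and the groups were far apart. The mean was 298.9 ± 47.5 against 66.6 ± 24.1 (SD, n = 3 each). By the means of the log2 values the difference was 4.63-fold. On the log2 scale it was 2.21 ± 0.36 (SE; limma, adjusted p = 0.0056). The gene lies on chromosome 7 from 113207465 to 113314126, and like Bhlhe41 and Tef it overlaps a gene annotated on the opposite strand. Npas2, whose product can stand in for CLOCK, read 173.3, 265.3 and 291.9 in CORT and 68.4, 170.8 and 138.5 in vehicle. These values did not overlap, with the nearest pair 173.3 and 170.8, and the difference of 1.01 ± 0.32 did not pass (limma, adjusted p = 0.647).

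Clock read 2138, 2134 and 2039 in CORT and 1790, 1808 and 1940 in vehicle. Its CORT libraries were all slightly above the vehicle libraries, with a log2 difference of 0.19 ± 0.09 (limma, adjusted p = 1). Rora and Rorb encode activators of Arntl that compete with the REV-ERB proteins, and their groups overlapped. Rora differed by 0.05 ± 0.21 and Rorb by 0.07 ± 0.47 on the log2 scale (SE; limma, adjusted p = 1 for both). The sign of each turned when 12 h libraries were left out, singly or both of a replicate number.

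The PAR bZIP factors carry the clock's output to other genes through D-boxes. With Nfil3, this list held 4 genes, of which 2 were called lower in CORT and none higher (median log2 difference -0.90). Dbp read 280.0, 92.3 and 305 in CORT and 2000, 982.1 and 1520 in vehicle. The lowest vehicle library was far above the highest CORT library. The mean was 225.8 ± 116 in CORT and 1501 ± 509 in vehicle (SD, n = 3 each). By the means on the log2 scale vehicle was 7.2-fold higher. The log2 difference was -2.85 ± 0.41 (SE; limma, adjusted p = 0.00225). Dbp lies on chromosome 7 from 45705088 to 45710203 and overlaps Sphk2 on the opposite strand. Sphk2 differed by 0.14 ± 0.14 (limma, adjusted p = 1).

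Tef read 1461, 872.0 and 1335 in CORT and 3472, 2201 and 2639 in vehicle, without overlap. Its log2 difference was -1.19 ± 0.23 (SE; limma, adjusted p = 0.0390), the largest adjusted p of the 8 calls (chromosome 15, 81802421 to 81826863). Hlf, the third PAR bZIP gene, read 827.6, 408.7 and 435.6 in CORT and 1201, 504.1 and 860.9 in vehicle. These overlapped, and the difference of -0.61 ± 0.44 did not pass (limma, adjusted p = 1). Nfil3 encodes E4BP4, a bZIP repressor outside the PAR family that binds the same sites. It read 113.4, 138.7 and 121.5 in CORT against 39.1, 70.6 and 40.8 in vehicle. The lowest CORT library was well above the highest vehicle library, but the difference of 1.34 ± 0.32 missed the threshold (limma, adjusted p = 0.256).

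**Figure D2:**
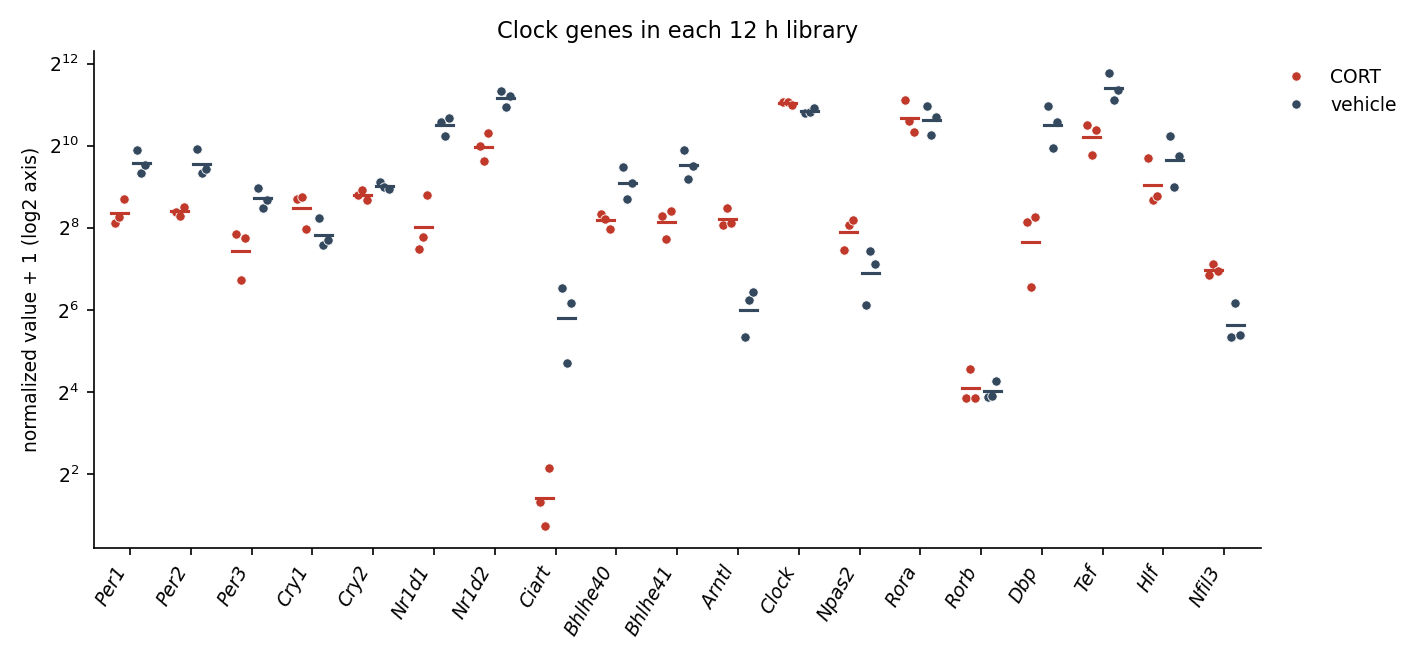
Normalized value plus 1 on a log2 axis for the 19 clock genes in each of the 3 CORT and 3 vehicle libraries at 12 h. Each point is 1 library and each bar is the mean of the 3 values on the log2 scale. The CORT points lie below the vehicle points in 11 genes, above them in 4 (Arntl, Clock, Npas2 and Nfil3) and overlap them in the other 4.

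Across the 19 clock genes, then, 11 had every CORT library below every vehicle library, 4 had every CORT library above and 4 overlapped. The CORT libraries varied a little more among themselves in these genes than the vehicle libraries. The median SD on the log2 scale was 0.395 in CORT and 0.347 in vehicle, against 0.234 and 0.244 over all tested features.

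Lingo1 was the only called feature that is not a clock gene. It encodes a leucine-rich repeat membrane protein known from neurons and myelination. Its values were 4.67, 4.64 and 1.22 in CORT and 24.6, 24.4 and 23.3 in vehicle. The vehicle libraries were nearly equal and all far above the CORT libraries, although both levels rest on few reads. The log2 difference was -2.60 ± 0.42 (SE; limma, adjusted p = 0.0056), or -1.35 with 10 added before the log (adjusted p = 0.00211), at chromosome 9, 56618475 to 56796468. Among 10 markers of neurons and Schwann cells none was called, and their summed values overlapped, from 4095 to 6069 in CORT and from 3408 to 5687 in vehicle.

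Whether the 12 h difference stood apart from the same contrast at other times was tested directly, as the 12 h difference minus the mean of the differences at 4, 8, 16, 20 and 24 h. Of 17867 features, 10 passed (0.056%; limma, adjusted p under 0.05), 9 of them with a more negative difference at 12 h (0.0504%). Dbp differed from the other times by -3.25 ± 0.45 (log2, SE; adjusted p = 0.00141). Nr1d1 differed by -2.64 ± 0.38 and Arntl by 2.72 ± 0.39, at the same adjusted p. Per2 and Per3, not called at 12 h alone, passed here with -1.52 ± 0.29 (adjusted p = 0.0316) and -1.70 ± 0.31 (adjusted p = 0.0243). Per1 did not pass, with -1.43 ± 0.31 (limma, adjusted p = 0.114). This count was 4 without the 8 libraries whose names differ and 0 with the other naming (limma; smallest adjusted p = 0.125, with 528 at an unadjusted p under 0.05). It was 5 without vehicle replicate 1 at 12 h and 6 without CORT replicate 2 or vehicle replicate 3.

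Between 12 and 24 h the direction turned for nearly all clock genes: 18 of 19 had differences of opposite sign at these times, as did 8432 of all features (47.2%). Dbp differed by -2.85 at 12 h and by 1.02 and 2.08 at 20 and 24 h. Nr1d1 went from -2.47 to 1.59 and 1.00 over the same times, and Arntl from 2.21 to -0.38 and -1.19. Ciart differed by 2.59 at 4 h and by 2.15 at 24 h. At 4 h its CORT values thus exceeded those of vehicle, the reverse of 12 h. At 24 h a high CORT library raised the group means. From lowest to highest, CORT read 423.4, 457.6 and 1537 for Dbp and 740.4, 760.7 and 1729 for Nr1d1. The highest vehicle libraries read 210.5 and 673.1. Ciart overlapped at 24 h, with 3.89, 12.6 and 61.1 in CORT and up to 5.64 in vehicle. At 8 and 16 h these genes differed in the same direction as at 12 h, but less. The differences were -0.67 and -0.84 for Dbp, -1.11 and -0.027 for Nr1d1, -1.01 and -1.33 for Ciart, and 0.17 and 0.41 for Arntl. Of the 10 clock repressors, 6 were negative and 4 positive at 8 h (median -0.22), and 10 were negative at 16 h (median -0.35). The lower values were thus shared in part with the neighbouring times. These log2 differences describe the course. For scale, the same fit called 29 features at 4 h, 142 at 8 h, 2 at 16 h, 0 at 20 h (1073 at an unadjusted p under 0.05) and 6 at 24 h (limma). Without the 8 libraries whose names differ, the differences were 0.98 at 20 h for Dbp, 1.68 for Nr1d1 and -0.59 for Arntl, and 2.17 at 4 h for Ciart. With the other naming they were 0.26, 0.48, -0.14 and 1.99, so that those of Dbp, Nr1d1 and Arntl at 20 h were much smaller in size.

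**Figure D3:**
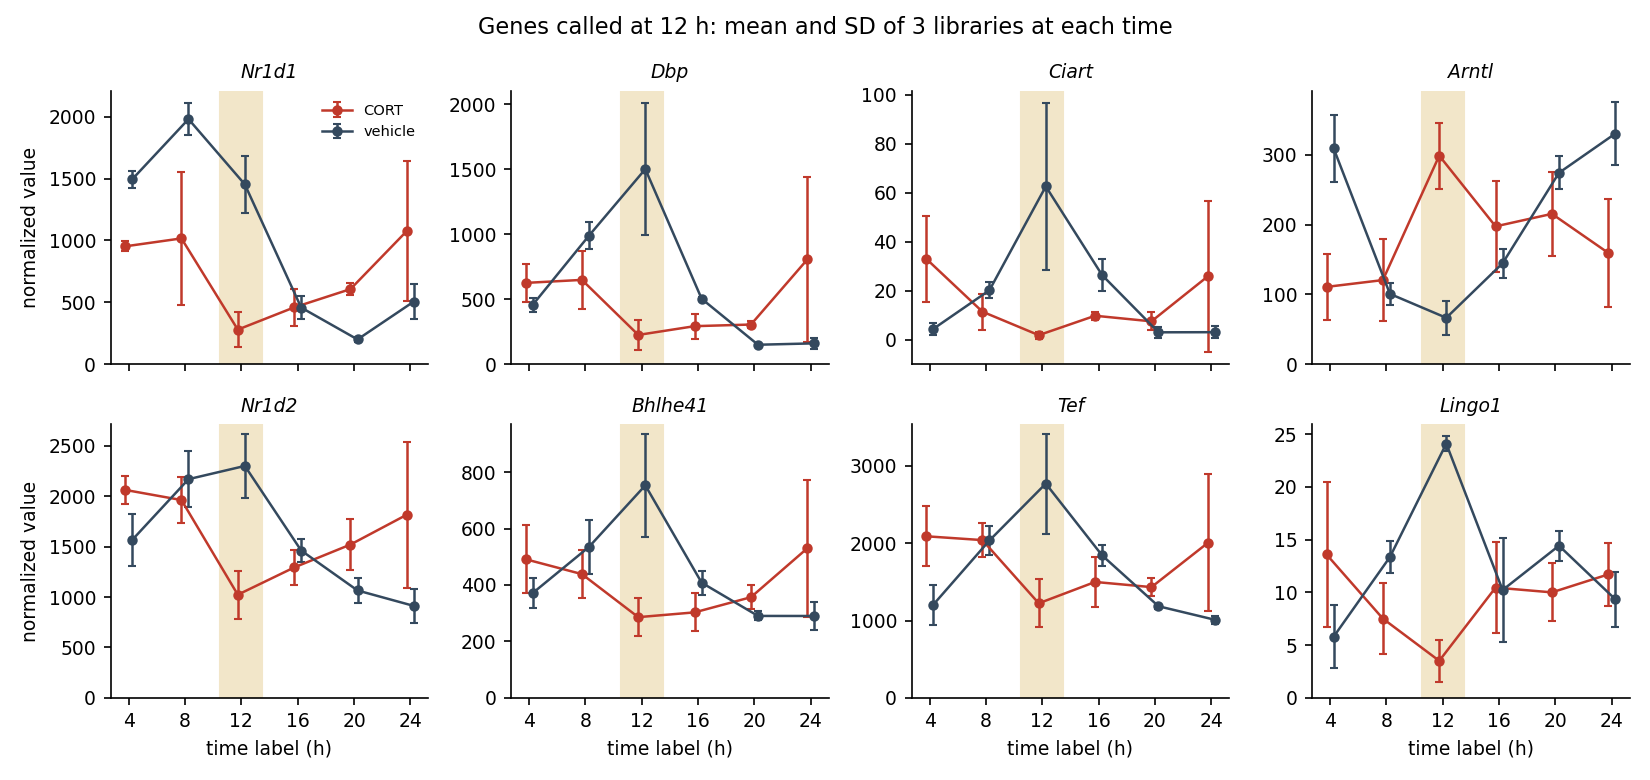
Mean normalized value of the 8 called genes at the 6 time labels (x axis, h) in CORT and vehicle, with SD bars over 3 libraries and 12 h shaded. In vehicle, Dbp, Ciart, Nr1d2, Bhlhe41, Tef and Lingo1 are highest at 12 h and Arntl is lowest, while CORT has its lowest mean of these 6 genes, and its highest mean of Arntl, at 12 h.

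The 12 h label was an extreme of the vehicle day for many clock genes, and in several of them the CORT mean at 12 h sat near the opposite extreme. It was not an extreme of vehicle for Per2, Cry1, Cry2, Nr1d1, Bhlhe40, Rora and Rorb. For Hlf and Clock it was, but CORT at 12 h lay between the extremes. Hlf was at 557.3, with vehicle means of 360.4 to 855.3, and Clock at 2104, with 1846 to 2537. Vehicle Dbp was highest at 12 h (mean 1501) and lowest at 20 h (150.3), and CORT at 12 h was at 225.8. Vehicle Ciart had means of 62.6 at 12 h, its highest, and 3.04 at 20 h, its lowest, and CORT at 12 h was at 1.87. Vehicle Arntl was lowest at 12 h (66.6) and highest at 24 h (330.6), and CORT at 12 h was at 298.9. Over all 19 clock genes, the mean absolute log2 distance of the CORT 12 h profile to vehicle was 1.28 at 12 h and 1.04 at 8 h. It was 0.2501 at 20 h and 0.2705 at 24 h, the nearest of the 6 vehicle times. Each CORT library by itself was nearest to vehicle at 20 h (replicate 1, 0.3425) or at 24 h (replicate 2, 0.344, and replicate 3, 0.341). Without the 8 libraries whose names differ, the distance to vehicle was 0.217 at 20 h and unchanged at 24 h. With the other naming it was 0.387 at 20 h and 0.781 at 8 h, and 24 h was then nearest. By library, replicates 1 and 3 were then nearest to vehicle at 20 h (0.423 and 0.2703) and replicate 2 to vehicle at 24 h. Under that naming vehicle Dbp had a mean of 402.4 at 20 h and was lowest at 24 h (161), and vehicle Ciart had 7.82 at 20 h and was lowest at 24 h (3.08). For scale, vehicle at 12 h lay at 1.18 from vehicle at 20 h and at 1.33 from vehicle at 24 h.

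The transcripts of enzymes that modify clock proteins gave no call. In this list of 7 kinases and ubiquitin enzymes the median log2 difference was 0.01. Csnk1d, a kinase of the PER proteins, differed by 0.01 ± 0.08 (SE). Usp2, a deubiquitinase under clock control, had the largest difference in the list. It read 59.4, 35.8 and 23.1 in CORT and 127.6, 54.9 and 106.6 in vehicle, a difference of -1.29 ± 0.46 with overlapping groups (limma, adjusted p = 0.830).

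Among 10 clock-linked genes of cell cycle and metabolism none was called either, and 5 were positive and 5 negative. Leo1, which encodes a subunit of the PAF1 transcription elongation complex, read 193.7, 199.1 and 197.3 in CORT and 79.4, 106 and 129.5 in vehicle. Its CORT libraries were nearly equal and all higher, with a difference of 0.93 ± 0.23 (limma, adjusted p = 0.298). Wee1, a clock-controlled inhibitor of mitotic entry, read 112.1, 117.5 and 120.9 against 179.4, 152.4 and 154.9, a difference of -0.47 ± 0.16 (limma, adjusted p = 0.757). Lonrf3 differed by 0.83 ± 0.27 and the tetraspanin gene Tspan4 by -0.69 ± 0.20, both without overlap (limma, adjusted p = 0.720 and 0.572).

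Glucocorticoid-responsive genes were not higher in CORT at 12 h. None of 25 was called in either direction, 19 had a negative difference and the median was -0.31, against 0.01 over all features. At an unadjusted p under 0.05, 3 were lower (Per1, Fkbp5 and Fam107a) and 0 higher, where all features gave 2.61% lower and 1.89% higher. Fkbp5, a co-chaperone of the receptor and a classic target, read 388.3, 276.1 and 403.3 in CORT and 724.2, 452.8 and 553.6 in vehicle. Every CORT library was below every vehicle library, yet the difference of -0.69 ± 0.33 did not pass (limma, adjusted p = 1). At 4 h the same contrast for Fkbp5 was 2.19, from means of 2435 in CORT and 502.4 in vehicle (1.34 with the other library naming). Tsc22d3, which encodes the mediator GILZ, read 746.4, 676.5 and 816.3 in CORT and 1144, 877.2 and 1070 in vehicle at 12 h, a difference of -0.46 ± 0.28 (limma, adjusted p = 1), against 2.31 at 4 h (1.51 with the other naming). Fam107a read 3.53, 5.36 and 7.47 in CORT and 31.8, 17.9 and 24.3 in vehicle, without overlap and with a difference of -2.0 ± 0.54 (limma, adjusted p = 0.385).

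The other named targets overlapped between the groups. Zbtb16 differed by -1.02 ± 0.52, Klf9 by -0.45 ± 0.26, Mt1 by -0.37 ± 0.28 and Mt2 by -0.39 ± 0.38 on the log2 scale (SE; limma, adjusted p = 1 for each). Sgk1, a kinase induced by the hormone, differed by -0.14 ± 0.29, and the phosphatase gene Dusp1 by 0.36 ± 0.53 (limma, adjusted p = 1). The receptor gene Nr3c1 was level, with values of 2423, 2131 and 1866 in CORT and 2373, 1691 and 2330 in vehicle (0.01 ± 0.18; limma, adjusted p = 1). None of the 10 genes of glucocorticoid signalling was called, and their median was -0.03.

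**Figure D4:**
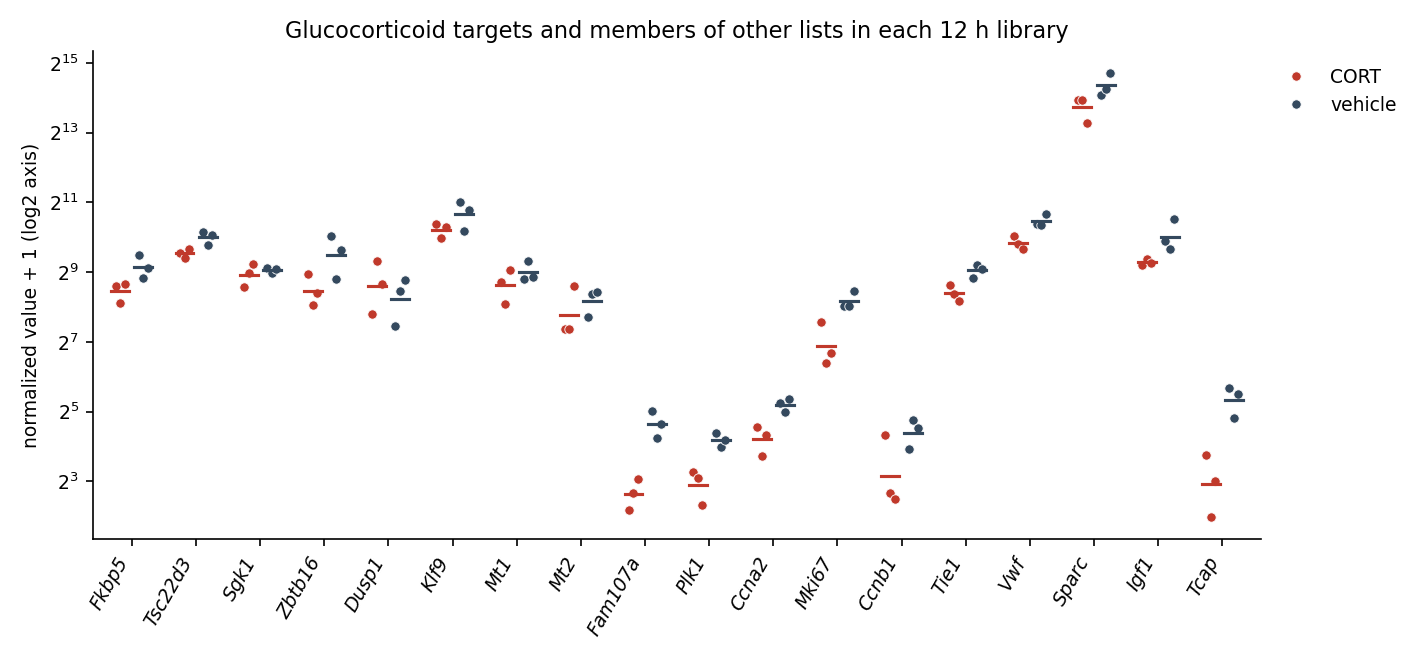
Normalized value plus 1 on a log2 axis for glucocorticoid targets and for members of other lists in each 12 h library. Points are libraries and bars are means of the 3 values on the log2 scale. Fkbp5, Tsc22d3, Fam107a, Plk1, Ccna2, Mki67, Tie1, Vwf, Sparc, Igf1 and Tcap have all CORT points below all vehicle points, and none of the genes shown passed an adjusted p of 0.05.

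Outside the 3 clock lists, 33 lists of pathways and cell types held 444 other tested features. None of them was called (0 of 444; limma), and 40 had an unadjusted p under 0.05 (9.01%, against 4.51% of all features). Under the alternative settings, calls were checked for the lists fixed by gene names, not for the ribosomal protein and mitochondrially encoded genes. Leaving aside Per1, no member of the checked lists was called under any alternative setting run. Per1 is also counted among the glucocorticoid-responsive genes and was called with library weights (limma, adjusted p = 0.0493).

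Cell division genes had lower values in CORT without a single call. All 14 were negative, with a median log2 difference of -1.11, 10 had an unadjusted p under 0.05, and in 7 the CORT libraries all lay below vehicle, where all features gave 2.61% lower at that p and 3.34% below. Mki67, the proliferation marker, read 189.8, 83.5 and 101.9 in CORT and 262.6, 261.7 and 355.0 in vehicle. Its groups did not overlap, and the difference was -1.30 ± 0.40 (SE; limma, adjusted p = 0.634). The mitotic kinase gene Plk1 read 8.75, 7.56 and 4.03 against 20.2, 14.8 and 17.2, a difference of -1.29 ± 0.36 (limma, adjusted p = 0.464). The cyclin gene Ccna2 differed by -0.99 ± 0.28 without overlap, and Ccnb1 by -1.24 ± 0.39 with overlap (limma, adjusted p = 0.548 and 0.664). Tested against the mean of the other times, these differences did not pass, with -0.28 for Mki67 and -0.05 for Ccna2 on the log2 scale (limma, adjusted p = 0.998 for both). By contrast, 15 DNA replication genes had a median of -0.02, with Ccne1 at -1.22 ± 0.46 (limma, adjusted p = 0.921).

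Endothelial markers were also lower without a call. All 10 were negative, with a median of -0.36, and their summed values were 3989 to 5343 in CORT and 5762 to 7233 in vehicle, with no overlap of the sums. This was not particular to 12 h: the medians were -0.26, -0.79, -0.12, -0.48 and -0.55 at 4, 8, 16, 20 and 24 h. Vwf, which encodes von Willebrand factor, read 1046, 900.8 and 809.0 in CORT and 1335, 1311 and 1619 in vehicle, a difference of -0.63 ± 0.19 (limma, adjusted p = 0.602). The receptor genes Tie1 and Flt1 differed by -0.65 ± 0.19 and -0.53 ± 0.23, also without overlap (limma, adjusted p = 0.573 and 1). The part of vessel content in any other difference was not tested.

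Matrix genes gave no call. Of 25 collagen and matrix genes 21 were negative, with a median of -0.32. Their medians were also negative at the other times, from -1.01 at 8 h to -0.26 at 16 h. Sparc, a collagen-binding matrix protein, read 15853, 15853 and 9919 in CORT and 17509, 19623 and 26872 in vehicle (-0.63 ± 0.21; limma, adjusted p = 0.774). Col15a1 and Col5a1 differed by -0.60 ± 0.22 and -0.63 ± 0.27 with overlap (limma, adjusted p = 0.838 and 1). In the IGF axis 8 of 10 were negative (median -0.11). The growth factor gene Igf1 read 589.8, 663.6 and 615.7 in CORT and 952, 804.4 and 1470 in vehicle, without overlap (-0.74 ± 0.29; limma, adjusted p = 0.943). Igfbp2 and Igfbp3, which encode binding proteins of this factor, differed by -0.63 ± 0.29 and -0.60 ± 0.26 (limma, adjusted p = 1 for both).

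Immune and stress lists gave no call. Of 14 interferon response genes 13 were negative (median -0.20), and the medians at other times ran from -0.74 at 8 h to -0.0023 at 16 h. Of 13 tested cytokine and chemokine genes 7 were positive and 6 negative; the eosinophil chemokine gene Ccl11 differed by -1.03 ± 0.35 with overlap (limma, adjusted p = 0.774). Icam1, an adhesion receptor gene, differed by 0.28 ± 0.12 (limma, adjusted p = 0.985). Heat shock genes (12, median -0.07), endoplasmic reticulum stress genes (17, median -0.01) and immediate early genes (15, median 0.09) lay near the median of all features.

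Genes of bladder sensing and contraction gave no call. None of 18 had an unadjusted p under 0.05, and the median was 0.08. The stretch channel gene Piezo1 read 872.0, 1132 and 777.3 in CORT and 978.2, 928.0 and 971.8 in vehicle (-0.07 ± 0.16; limma, adjusted p = 1), and the sign turned, to 0.0017, with each group on its own scale. The channel gene Trpv4 differed by 0.13 ± 0.25, the gap junction gene Gja1 by 0.02 ± 0.22 and the vesicular ATP transporter gene Slc17a9 by 0.39 ± 0.35 (limma, adjusted p = 1 for each). These genes overlapped between the groups, and the muscarinic receptor genes Chrm2 and Chrm3 differed by 0.07 ± 0.58 and 0.09 ± 0.56 (SE).

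Lists of broadly expressed genes gave no call. Of 80 ribosomal protein genes 73 were positive, with a median of 0.11, and their medians at other times ran from 0.09 at 24 h to 0.28 at 8 h. In cholesterol synthesis 15 of 18 genes were positive, with a median of 0.10. Fdps, an enzyme gene of the latter pathway, differed by 0.40 ± 0.19 (limma, adjusted p = 1). The 13 mitochondrially encoded genes had a median of 0.02 and 15 fatty acid oxidation genes one of 0.02.

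Markers of cells that vary with dissection differed between single libraries. Of 8 adipocyte markers all were positive, with a median of 1.73, but Adipoq, Cfd, Lep, Cidec and Retn were at 0 in vehicle replicate 3. Cfd read 164.8, 532.2 and 101.6 in CORT and 315.9, 220.6 and 0 in vehicle. Striated muscle markers split, with 5 of 10 tested positive and 5 negative. Tcap, a sarcomere gene, read 12.6, 2.94 and 7.11 in CORT and 50.6, 27.4 and 44.3 in vehicle, a difference of -2.42 ± 0.75 (limma, adjusted p = 0.635), and Myh7 differed by -1.24 ± 0.52 (limma, adjusted p = 1). Summed striated muscle markers overlapped, from 1183 to 3952 in CORT and from 1010 to 4908 in vehicle. The 7 erythroid markers were all negative (median -0.58), with sums of 1452 to 3725 in CORT and 979 to 6101 in vehicle, lowest in vehicle replicate 1.

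The remaining cell markers gave no call. Smooth muscle markers had a median of 0.17, with Synpo2 at 0.64 ± 0.27, and urothelium markers 0.04. Fibroblast markers had a median of -0.05, with Pi16 at -0.53 ± 0.21. Macrophage markers had a median of 0.02, with Cd163 at -0.64 ± 0.27. T and NK cell markers, all at low values, had a median of 0.48 with summed values of 104.1 to 119.6 in CORT and 74.6 to 107.6 in vehicle. Of 10 accessory gland markers only 2 were detected well enough to be tested.

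**Figure D5:**
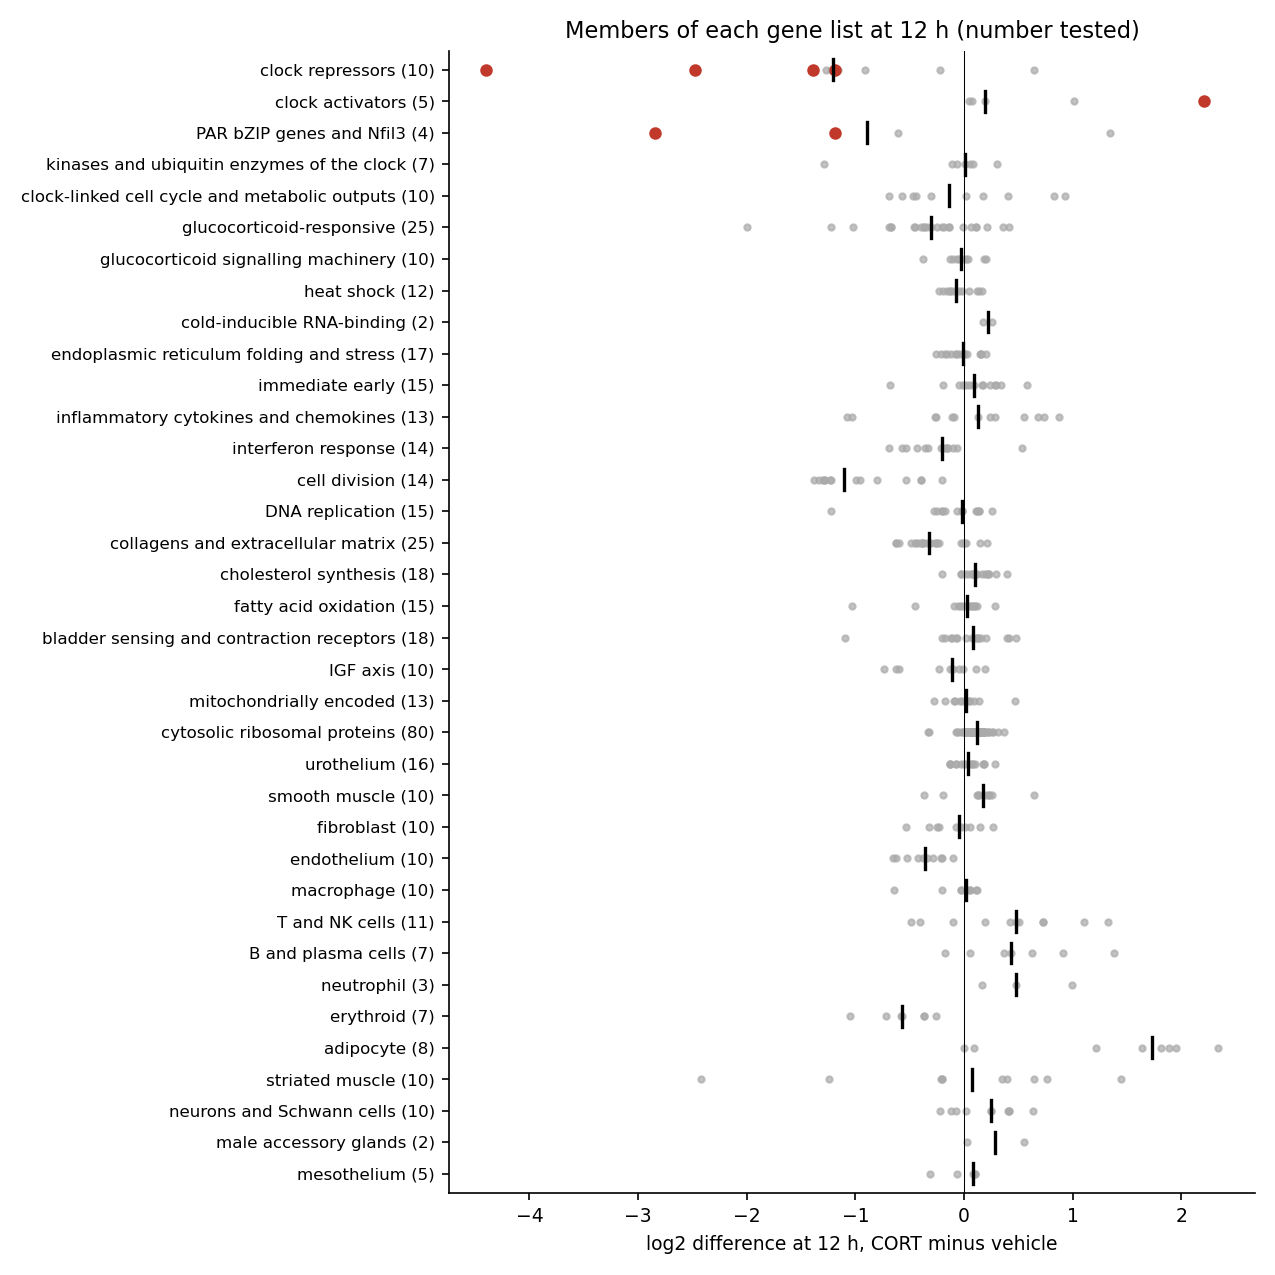
Log2 difference at 12 h, CORT minus vehicle (x axis), of each tested member of 36 gene lists (1 row a list, number tested in parentheses). Large red points are called genes, grey points are the others and black bars are list medians; the called genes lie in the first 3 rows only, 4 clock repressors, 1 activator and 2 PAR bZIP genes.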

How the data were processed

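Total RNA of whole bladder was sequenced from rRNA-depleted, directional libraries, per the labels' protocols. Reads were mapped to mm10, per the submitters' processing notes; the programs for alignment and counting were not given in the sources used here. For each group and pair of replicate numbers the authors deposited a table of 12 libraries and 49585 features, with a linear signal per gene. All columns of a table share 1 sorted set of values, so these are read counts quantile normalized over that table. Further deposited tables hold log2 values of genes the authors selected and were used only to check library names.

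A common scale was rebuilt by ranking each library within its 2 tables and assigning the mean sorted values of both groups. A feature was left out if over 50% of the 36 libraries had it at the minimum. Values were analysed as log2(value + 1), so fold changes of low genes are understated. The fit was limma 3.58.1 in R 4.3.3 over 36 libraries in 12 groups (24 residual degrees of freedom), with Benjamini-Hochberg adjustment at 0.05, tested on simulated data. Read totals of single libraries are not recoverable after this normalization. Whether counting used strand is not given, so reads of a gene and its antisense partner may be mixed.

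Named genes were the 19 clock genes, 13 genes fixed by name, the called features with a mean of at least 50 in the higher group (up to 15 each way), the 10 smallest p against the other times, and from each list up to 4 members with the smallest p. Csnk1d, Chrm2, Chrm3, Thra, Sphk2, Camta1 and the adipocyte markers were added after their values were seen. The comparison and the lists were chosen with earlier results of these data known. Alternatives were other pseudocounts, filters, scales, variance models, library names, replicate blocks and left-out libraries. Gene positions come from GENCODE vM21 and promoters from RefSeq (GRCm38.p6).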

Additional observations from a re-analysis of the deposited data

Results flagged for a closer look

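For 10 genes the 12 h difference between CORT and vehicle differed from the mean of the same difference at 4, 8, 16, 20 and 24 h (limma, adjusted p under 0.05 over 17867 features). In 9 the difference was more negative at 12 h. By the log2 difference of differences, these were Ciart at -5.11 ± 0.77 (SE; adjusted p = 0.00198), Dbp at -3.25 ± 0.45 (0.00141), Nr1d1 at -2.64 ± 0.38 (0.00141) and Lingo1 at -2.63 ± 0.46 (0.0123). Per3 followed at -1.70 ± 0.31 (0.0243), Bhlhe41 at -1.54 ± 0.27 (0.0148), Per2 at -1.52 ± 0.29 (0.0316), Tef at -1.52 ± 0.25 (0.0053) and Nr1d2 at -1.49 ± 0.22 (0.00198). Arntl alone was more positive at 12 h, at 2.72 ± 0.39 (0.00141). The 3 libraries a group are too few to name a single outlying sample, but fits with libraries left out were among 21 alternatives. Dbp stayed called in 20 of these, Nr1d1, Arntl and Ciart in 19, Nr1d2 in 18 and Tef in 15. Lingo1, Bhlhe41 and Per3 stayed called in 13 and Per2 in 10, and no sign changed.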

How the results depend on the processing

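The 8 calls at 12 h kept their direction in all 23 alternatives. Nr1d1 was called in 18 of them, Dbp in 17, Arntl in 15, Lingo1 in 14, Ciart in 13, Bhlhe41 and Nr1d2 in 12 and Tef in 10. Their log2 differences ranged from -4.95 to -2.48 for Ciart and from -2.83 to -1.35 for Lingo1, both smallest in size with 10 added before the log. For Nr1d1 they ranged from -2.86 to -2.17, for Dbp from -3.15 to -2.30 and for Arntl from 1.88 to 2.47. The count of calls was 0 with only the 6 libraries at 12 h, 0 with the other library names and 3 without the 8 libraries so affected, against 13 with library weights. The count against the other times was 0 and 4 under the same naming alternatives. Leaving out the CORT and vehicle 12 h libraries of a replicate number gave 0 to 2 calls at 12 h and 1 to 8 against the other times. Libraries of that number at other times stayed in the fit. Leaving out 1 library at 12 h gave 1 to 10 and 5 to 11. The main fit did not pair libraries by replicate number. Deviations of same-numbered libraries at 12 h correlated at 0.264, 0.00693 and -0.0531. In the series, however, 29 of 36 libraries correlated best with their own number, so libraries of a number were not fully independent in these values. A replicate block gave 8 and 10 calls over 36 libraries and 0 with only the 6 at 12 h (limma, smallest adjusted p = 0.643; 827 at an unadjusted p under 0.05). With each group on its own scale, 65.6% of features were positive in place of 54%, and 7 were called. Values at other times under both library namings were added after seeing the data. The cause of these changes was not tested, beyond fewer libraries in some fits.

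Of 61 genes followed, 10 changed sign somewhere, and 0 of these were called. Library weights gave Rorb -0.0093, Nr3c1 -0.054 and Gja1 -0.20, and separate scales gave Piezo1 0.0017. Leaving out libraries gave ranges of -0.025 to 0.76 for Dusp1, -0.16 to 0.18 for Gja1, -0.65 to 0.060 for Mt1, -0.15 to 0.18 for Nr3c1, -0.24 to 0.060 for Piezo1 and -0.17 to 0.25 for Rora. They were -0.22 to 0.31 for Rorb, -0.30 to 0.070 for Sgk1, -0.015 to 1.03 for Synpo2 and -0.072 to 0.37 for Trpv4.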
